A study of Mus musculus with 18 samples.

Results

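miR-140 is a single hairpin of the mouse genome whose duplex gives a microRNA from each arm, miR-140-5p and miR-140-3p (mmu-miR-140-5p and mmu-miR-140-3p in the table). They are 2 of the 2042 names in the deposited table. They were chosen by measured values, the levels in the MRTF-A bait eluate against the control eluate, because only the 5p arm was retained by the bait. That contrast of bait with control is therefore a description and carries no test. Changes between the states within one kind of eluate were tested. Those tests use the same eluate libraries, so they are not independent of the choice. The data are small RNA libraries of C2C12, a mouse line of muscle precursor cells that forms contractile myotubes in low serum. The 18 libraries fall into 6 groups of 3. Growth medium held 10% fetal calf serum, and differentiated cells spent 7 days in 2% horse serum. The labels attach that low-serum protocol to every sample, so the state of a library was read from its own differentiation label. From each state there are lysate input, the eluate of an MRTF-A bait and the eluate of an MS2 control. No genotype, allele or drug differs between the groups, and all of them are the same cell line.

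A hairpin is cut in the nucleus and then in the cytoplasm into a duplex, and one strand of it is usually loaded into an Argonaute protein while the other is degraded. The loaded strand finds messenger RNAs mainly by its seed, bases 2 to 8 from the 5′ end, so the arms of one hairpin recognise different targets. miR-140 is best known from cartilage, where it is transcribed with its host gene Wwp2, which encodes an E3 ubiquitin ligase, under control of the chondrocyte factor SOX9. In miRNA trapping by RNA affinity purification (miTRAP), a bait RNA tagged with MS2 hairpins is held on a resin, lysate is passed over it, and the small RNA that stays with the bait is sequenced. MRTF-A, encoded by Mrtfa, is a coactivator of serum response factor that follows the state of the actin cytoskeleton. The labels name the bait by its gene alone, and its exact sequence was not used here.

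The hairpin lies at chr8:107551244-107551313 on the plus strand (GRCm38). It falls inside the protein-coding gene Wwp2, in intron 16 of the 24-exon transcript Wwp2-201, and also within the single exon of a retained-intron transcript, Wwp2-206. The mature 3p arm is 21 bases long and occupies chr8:107551288-107551308. It is shown because its seed, in capitals, sets what it can pair with, and miR-497b is shown because it is the one other name in the RefSeq table (GRCm38.p6) with the same seed. The next lines give some of the miRNAs whose levels ran most like those of either arm, described further on. The seeds printed for them all differ from that of the 3p arm. miR-34c-5p and miR-301b-3p, also among those miRNAs, had no reference sequence.
miR-140-3p: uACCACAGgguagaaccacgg
miR-497b: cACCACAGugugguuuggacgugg
miR-301a-3p: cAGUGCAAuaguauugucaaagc
miR-21a-5p: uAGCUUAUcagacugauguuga
miR-186-5p: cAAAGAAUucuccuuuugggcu
miR-221-3p: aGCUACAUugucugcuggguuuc

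miR-497b had 1 read in all 18 libraries together, against 15512 for miR-140-3p. Of the reference names with this seed, miR-140-3p thus held nearly all reads. Reads were counted by name, so the 5′ end of each read is not known here. The longest annotated 3′UTR of Mrtfa (1004 bases, chr15:81012281-81013284, minus strand, GENCODE vM21) was searched for matches to the 3p seed on the transcript strand. The 6mer TGTGGT, opposite seed bases 2 to 7, occurred once, at bases 520 to 525 of the 3′UTR (chr15:81012760-81012765, minus strand). The match is printed with its flanks, with the paired bases in capitals.
Mrtfa 3′UTR: tgggaaatgggTGTGGTtacctccacat
The 7mers TGTGGTA and CTGTGGT and the 8mer CTGTGGTA, each of which contains the 6mer, had 0 matches. Of 2677 genes with a longest 3′UTR within 20% of that length, 34.6% held the 6mer, 7.62% TGTGGTA, 11.95% CTGTGGT and 2.20% the 8mer. A match is a description of letters and not of binding. Sites of the 5p arm were not analysed here.

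Values are CPM, reads scaled to the authors' effective library size, and the reads behind each were recovered from the steps in the table. Libraries held 294112 to 860828 reads in the inputs, 107165 to 544504 in the bait eluates and 15562 to 39695 in the MS2 control eluates. One read was therefore worth 1.66 to 3.05 CPM, 3.33 to 15.3 CPM and 11.9 to 34.3 CPM in turn. The authors' scaling factors differed by kind of library, at 0.701 to 1.48 for inputs, 0.341 to 0.634 for bait eluates and 1.24 to 2.37 for control eluates. Levels set across kinds of library rest on these factors, whereas the ratio of the arms within a library does not. Myotube miRNAs marked the states as labelled: 7 of them summed to 2620 to 7345 CPM in undifferentiated and 70292 to 95961 CPM in differentiated input. miR-1a-3p, miR-208b-3p and miR-499-5p were at 0 reads in undifferentiated input, and blood and epithelial markers summed to at most 9.18 CPM in any input. Neural markers summed to 40.9 to 309.8 CPM in the inputs with miR-124-3p at 0 reads. Libraries are called A, B and C in the order of the columns, whose suffixes do not match the replicate numbers in the titles. Nothing in the labels says whether replicates were separate cultures, so p-values measure the spread between these libraries. In bulk samples, fewer cells of a type and less RNA per cell cannot be told apart.

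In the inputs the 3p arm was the abundant one and the 5p arm was scarce. miR-140-3p measured 6909, 9988 and 8865 CPM in undifferentiated input libraries A, B and C (2269, 3595 and 5351 reads). In differentiated input it measured 2798, 3142 and 1628 CPM (1524, 1672 and 757 reads). All 3 differentiated libraries lay below all 3 undifferentiated ones. miR-140-5p measured 79.2, 75.02 and 106.0 CPM in undifferentiated input (26, 27 and 64 reads). Its differentiated values were 45.9, 77.0 and 47.3 CPM (25, 41 and 22 reads). These groups overlap, since differentiated library B is above undifferentiated library B. By abundance the 3p arm ranked 13 to 20 among all names in undifferentiated input and 33 to 46 in differentiated input, and the 5p arm ranked 170 to 201 over the 6 inputs.

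In the bait eluates the order of the arms was the opposite. miR-140-5p reached 75186, 57479 and 84317 CPM in the undifferentiated bait eluates (4904, 6919 and 6690 reads). In the differentiated bait eluates it stood at 35479, 32873 and 25782 CPM (8138, 9867 and 5013 reads). The 5p arm ranked 3 or 4 among all names in the undifferentiated and 12 or 13 in the differentiated bait eluates. miR-140-3p had 445, 399 and 315 CPM in undifferentiated bait eluates (29, 48 and 25 reads) and 118, 237 and 118 CPM in differentiated ones (27, 71 and 23 reads). The ratio of 5p to 3p reads in a bait eluate ran from 139 in differentiated library B to 301.4 in differentiated library A.

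The MS2 control eluates held few reads of either arm. miR-140-5p had 328, 47.5 and 235 CPM in the undifferentiated control (10, 4 and 11 reads) and 365, 275 and 298 CPM in the differentiated control (11, 8 and 11 reads). miR-140-3p had 624, 522 and 662 CPM in the undifferentiated control (19, 44 and 31 reads) and 365, 172 and 298 CPM in the differentiated control (11, 5 and 11 reads). The 3p groups do not overlap and the 5p groups do. Group means for the 5p arm, in descending order, were 72327 ± 13645 CPM (SD, n = 3) in undifferentiated bait, 31378 ± 5018 in differentiated bait, 313 ± 47.1 in differentiated control, 203 ± 143 in undifferentiated control, 86.7 ± 16.8 in undifferentiated input and 56.7 ± 17.6 in differentiated input. The libraries of the control groups overlap, and so do those of the inputs. Undifferentiated control, from 47.5 to 328 CPM, also overlaps both input groups. For the 3p arm the order was 8588 ± 1558 CPM in undifferentiated input, 2523 ± 793 in differentiated input, 603 ± 72.1 in undifferentiated control, 386 ± 65.7 in undifferentiated bait, 278 ± 98.3 in differentiated control and 158 ± 68.4 in differentiated bait. Undifferentiated bait and differentiated control overlap in that order, as do differentiated control and differentiated bait.

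**Figure D1:**
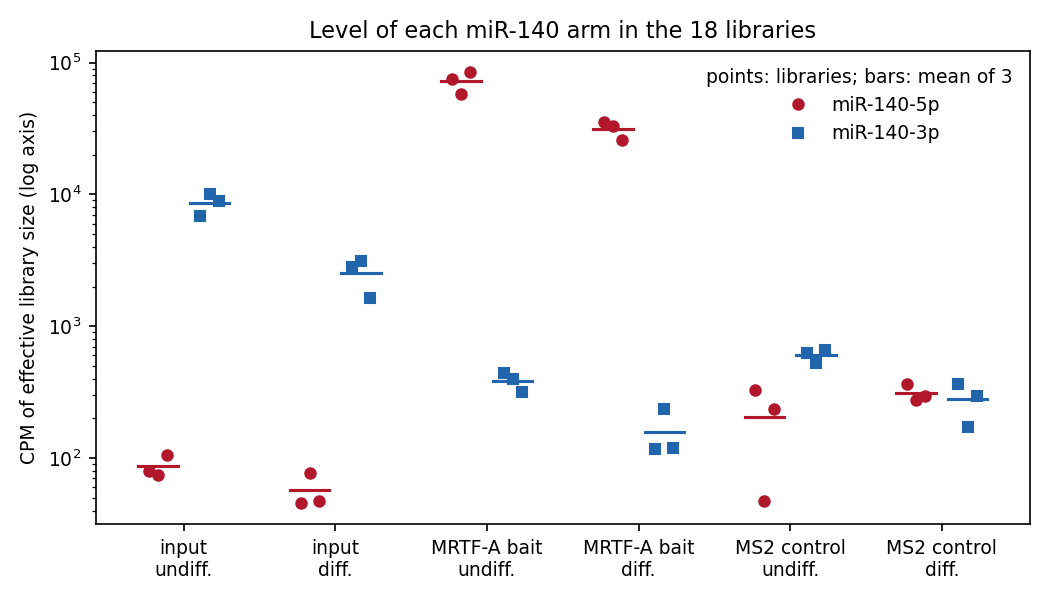
CPM of effective library size of miR-140-5p (red circles) and miR-140-3p (blue squares) in each library, on a log axis, by group (input, MRTF-A bait eluate and MS2 control eluate, undifferentiated or differentiated), with bars at the mean of 3 libraries. The 5p arm sits between 25782 and 84317 CPM in the 6 bait eluates and at or below 365 CPM elsewhere, while the 3p arm is highest in the inputs.

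The contrast that chose the arms is given without a test. In undifferentiated cells the bait eluate exceeded the control eluate by 8.73 for the 5p arm and by -0.64 for the 3p arm, as differences of mean log2(CPM + 10). In differentiated cells the differences were 6.60 and -0.79. As ratios of mean CPM, the 5p arm was 355-fold and 100.4-fold higher with the bait, on 25 and 30 control reads in all. Of 169 miRNAs tested, the 5p value was the second highest in undifferentiated and the fourth highest in differentiated cells. In the limma fit 60.4% of the 169 passed an adjusted p of 0.05 in either direction in undifferentiated and 79.3% in differentiated cells. The median differences were 1.16 and 2.37 with the authors' factors, and they rest on those factors. With library totals the undifferentiated differences were lower, at 6.89 for the 5p arm and -2.48 for the 3p arm. Medians on that scale are not reported here. In the authors' deposited table the log2 fold changes of the 5p arm were 8.64 and 6.65, and those of the 3p arm were -0.63 and -0.80. Control libraries also differed in the share of reads with human names, 0.0900% to 0.115% in undifferentiated B and C and differentiated C and 0.755% to 0.930% in the other 3. The 5p difference was 9.23 against the first kind and 7.72 against the second in undifferentiated cells, and 6.66 and 6.57 in differentiated cells.

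Against the input, which shares the bait libraries with the contrast above, the arms moved apart in opposite directions. The 5p arm was 834-fold higher in the undifferentiated bait eluate than in its input by mean CPM and 553-fold higher in the differentiated one. On the log2(CPM + 10) scale these differences were 9.54, the highest of 305 miRNAs tested, and 8.90, the second highest. The 3p arm was 22.2-fold and 16.0-fold lower in the bait eluate than in input, at -4.44 and -3.94 on the log2 scale. In these comparisons 68.5% and 62.0% of miRNAs were called in either direction, and the median differences of all tested were -1.04 and -0.14. The control eluate against input gave 0.81 and 2.29 for the 5p arm and -3.80 and -3.14 for the 3p arm. There 71.1% and 69.2% were called, and the medians of all tested were -2.19 and -1.58. The 3p arm was thus lower than input in both kinds of eluate. The undifferentiated 5p libraries of control and input overlap, since control library B at 47.5 CPM lies below all 3 inputs. That 5p difference was 0.31 without control A, 1.59 without control B and 0.54 without control C.

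**Figure D2:**
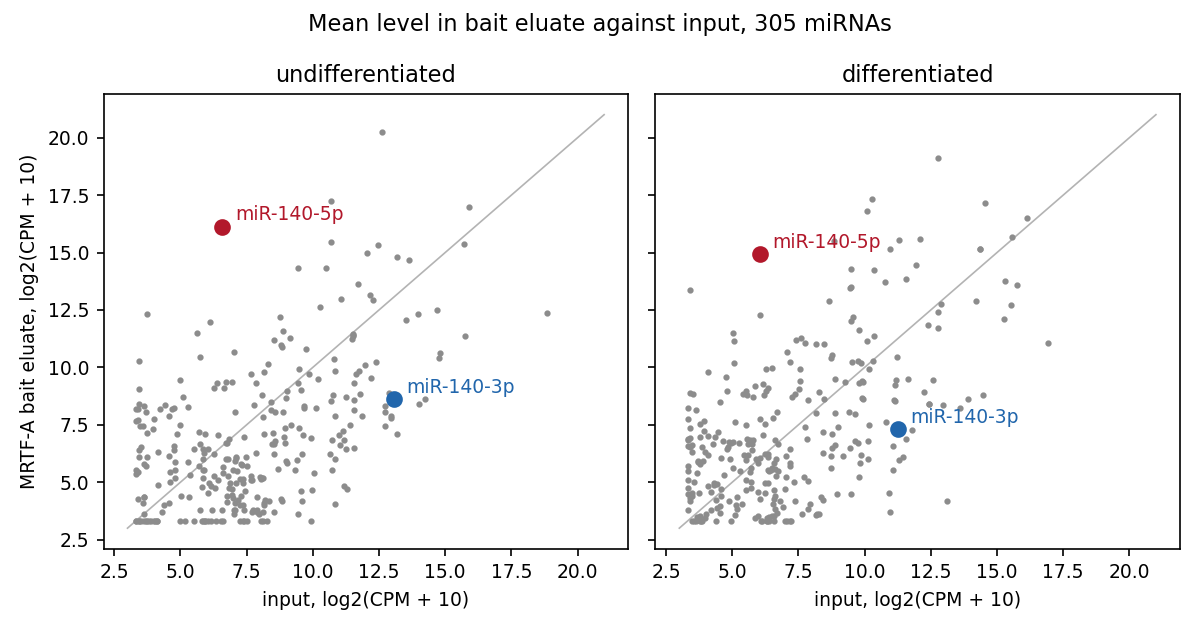
Group means of log2(CPM + 10) in the MRTF-A bait eluate against input for 305 miRNAs, undifferentiated on the left and differentiated on the right, with a line at equality. miR-140-5p lies farthest above the line in undifferentiated cells and miR-140-3p lies below it in both states.

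The distance of the arms from miRNAs of like mean input level was read from the 10 names nearest to each arm in mean input CPM, 5 above and 5 below. Around the 5p arm (71.7 CPM over the 6 inputs, neighbours 68.3 to 76.9 CPM) the neighbours had a median of 11.2 CPM in the undifferentiated bait eluate. The highest of them was miR-130b-3p with 1740 CPM, and none of the 10 came above the 5p arm. In the differentiated bait eluate the neighbours had a median of 40.5 CPM, and miR-130b-3p was again the highest with 500.3 CPM. miR-99a-5p, another neighbour, had no read in the 6 bait eluates, which allows up to 9.99 to 46.0 CPM by library at 3 reads. The 3p arm (5555 CPM in input) did not stand apart in this way. Its 10 neighbours had a median of 431 CPM in the undifferentiated and 332 CPM in the differentiated bait eluate, and 5 and 6 of them came above it. They ranged from miR-362-3p with 7.88 CPM to let-7g-5p with 29377 CPM in undifferentiated bait. Neighbours were matched on the mean of all 6 inputs and not within a state.

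Within a library the share of miR-140 reads on the 5p arm does not depend on scaling. In undifferentiated input the share was 1.13% in library A (exact 95% binomial interval 0.741% to 1.66%), 0.745% in B (0.492% to 1.08%) and 1.18% in C (0.911% to 1.51%). In differentiated input it was 1.61% (1.05% to 2.37%), 2.39% (1.72% to 3.23%) and 2.82% (1.78% to 4.24%). All 6 bait eluates had between 99.3% and 99.7% on the 5p arm. In the control eluates it was 34.5%, 8.33% and 26.2% in undifferentiated cells and 50.0%, 61.5% and 50.0% in differentiated cells, on 13 to 48 reads a library. Intervals cover counting error only, since the reads carry no molecular identifiers.

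The mean share in input was 1.02% ± 0.239 (SD, n = 3) before and 2.28% ± 0.613 after differentiation, and the groups do not overlap. The difference of 1.26 percentage points had an exact 2-sided permutation p of 0.1 (adjusted over the 3 kinds of library, 0.15), the smallest that 3 against 3 libraries allow. In the control eluates the means were 23.0% ± 13.4 and 53.8% ± 6.66, again without overlap, and the exact permutation p was 0.1 (adjusted 0.15). In the bait eluates the means were 99.45% ± 0.162 and 99.50% ± 0.196 with an exact permutation p of 0.8 (adjusted 0.8). On the log2(CPM + 10) scale the 5p minus 3p difference went from -6.47 to -5.22 in input, from 7.51 to 7.61 in bait eluates and from -1.86 to 0.22 in control eluates.

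A fit added after the values had been seen compared this arm difference between the states over all hairpins with both arms, using limma with Benjamini-Hochberg adjustment. In input it gave a change toward the 5p arm of 1.25 ± 0.33 (SE) for miR-140, with a limma adjusted p of 0.0229. Of 61 hairpins, 32.8% were called, 12 toward 5p (19.7%) and 8 toward 3p, and miR-140 had the tenth highest change. The call was lost without differentiated input B (adjusted p 0.0677) or C (adjusted p 0.0668). In the control eluates the change was 2.07 ± 0.66 with a limma adjusted p of 0.0443, where 33.3% of 18 hairpins were called, 27.8% toward 5p. This call was lost without any one of undifferentiated B or C or differentiated A or B, with adjusted p of 0.0614 to 0.0871, and the change was 2.33 and 1.23 within the kinds of control library with few and with more human-named reads (limma adjusted p 0.0771 and 0.314). Each kind has 1 library in one of the states, assumed to vary like the other groups, so these 2 values say little about the call. With the bait the change was 0.10 ± 0.66 (limma adjusted p 0.982), with 5.56% called. An arm change in the bait eluate of the size seen in input lies within 2 SE of that estimate.

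**Figure D3:**
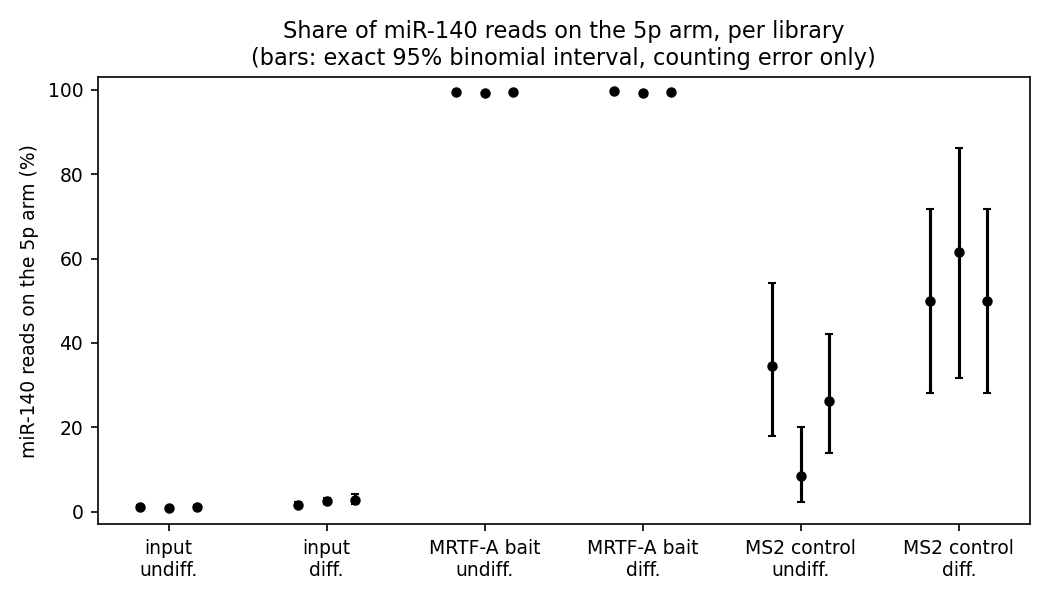
Share of miR-140 reads on the 5p arm in each of the 18 libraries, in percent, with exact 95% binomial intervals for counting error. The inputs lie between 0.745% and 2.82%, the bait eluates between 99.3% and 99.7%, and the control eluates between 8.33% and 61.5% with wide intervals.

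The same arm difference was set against other hairpins. Over 52 hairpins with both arms kept across the 18 libraries, the bait eluate shifted the 5p minus 3p difference relative to input by a median size of 2.18 in undifferentiated and 2.52 in differentiated cells (log2). miR-140 had the largest shift in both states, 13.98 and 12.83 toward 5p. The next in undifferentiated cells was miR-31, a miRNA named here after its values were seen, at 13.04. It was already higher on the 5p arm in input, by 3.00. In differentiated cells miR-199a followed at 10.69 and miR-221 at 10.40. The sign of the arm difference was not the same in input and bait eluate in 21 of 52 hairpins in each state. In undifferentiated cells that count takes in hsa-miR-6511b and miR-99a, with a bait difference of 0 and so no higher arm there. An exchange with more than 1 log2 unit on both sides occurred in 8 hairpins in undifferentiated and 9 in differentiated cells, and miR-140, miR-199a, miR-28a, miR-30b, miR-34b and miR-7068 were in both sets. Exchanges between input and control eluate were not counted, so these counts do not separate the bait from the control. For miR-140 the difference moved from -6.47 and -5.22 in input to -1.86 and 0.22 in the control eluates.

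Against the control eluate, 18 hairpins had both arms tested. The bait difference of the 5p arm minus that of the 3p arm was 9.37 for miR-140 in undifferentiated cells, second to miR-199a at 10.67 and above miR-671 at 4.61 and miR-221 at 4.07. The lowest were miR-99b at -1.29, miR-30a at -1.47 and miR-378a at -5.63. In differentiated cells miR-140 had 7.39, between miR-199a at 10.36 and miR-221 at 6.75, followed by miR-28a at 3.58. let-7d at -3.10, miR-30a at -3.17 and miR-378a at -5.81 were lowest. For miR-378a the 3p arm was the retained one, and it was also the higher arm in input, whereas miR-140, miR-199a and miR-221 had the higher 3p arm in input and the higher 5p difference with the bait.

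**Figure D4:**
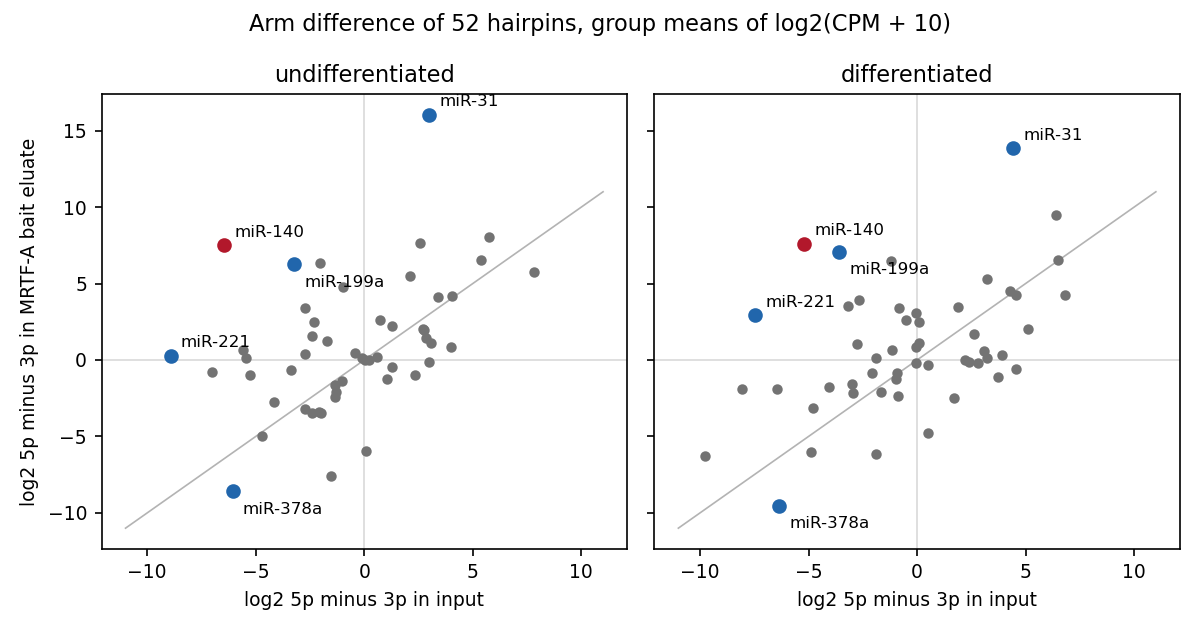
Difference of the arms, 5p minus 3p in group means of log2(CPM + 10), in the bait eluate against input for 52 hairpins, undifferentiated on the left and differentiated on the right, with a line at equality. miR-140 (red) moves from -6.47 in undifferentiated input to 7.51 in the bait eluate, and miR-199a, miR-221, miR-31 and miR-378a are marked in blue.

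With differentiation, the 3p arm fell in input. The change was -1.80 ± 0.34 (SE, log2) with a limma adjusted p of 0.000585, and 62.3% of 313 miRNAs were called, 46.3% as lower. The median change of all tested miRNAs was -0.64, and the 3p arm stood at -1.16 relative to it. The median itself moved with scaling, from -0.64 with the authors' factors to 0.14 with relative log expression (RLE) factors, and relative to it the 3p arm stayed between -1.16 and -0.98. The split of calls moved with it, from 50 higher and 145 lower to 100 higher and 68 lower. The 5p arm changed by -0.55 ± 0.34 with a limma adjusted p of 0.176. Its sign depended on the factors, at 0.26 with RLE and 0.04 with TMM over the 6 inputs, and relative to the median it was 0.08 to 0.13. In the authors' deposited table the input changes were -1.77 for the 3p arm (FDR 1.57e-05) and -0.62 for the 5p arm (FDR 1).

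In the bait eluates both arms were lower after differentiation and neither group pair overlapped in CPM. The 5p arm changed by -1.20 ± 0.52 with a limma adjusted p of 0.0827, which misses the threshold, and 38.5% of 169 miRNAs were called. The adjusted p was 0.0286 with RLE factors or a pseudocount of 50, 0.0226 with edgeR and 1.88e-05 with DESeq2, so the call depends on the tool and the scaling. DESeq2 estimated its own scaling factors, so its value changes both at once. As a percentage of all reads in the library, which uses no factor, the 5p arm made up 4.58%, 1.96% and 4.74% of undifferentiated and 1.97%, 1.81% and 1.64% of differentiated bait eluates. On that scale undifferentiated library B lies among the differentiated libraries. The 3p arm fell by 1.30 on the log2 scale (-1.30 ± 0.40) with a limma adjusted p of 0.0235. That call was lost with library totals as the scale (adjusted p 0.147), with no filter (0.135) and without undifferentiated bait A or B or differentiated bait A or C (0.0509 to 0.0759). The 7 myotube miRNAs summed to 1991 to 6853 CPM in undifferentiated and 611193 to 679567 CPM in differentiated bait eluates, and their part in the lower values of both arms was not tested.

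In the control eluates the 5p arm changed by 0.93 ± 0.52 (limma adjusted p 0.214) and the 3p arm by -1.14 ± 0.40 (limma adjusted p 0.0543), with 24.9% of 169 miRNAs called. The difference between the change in the bait eluate and the change in input was tested over all 18 libraries. It was -0.65 ± 0.68 for the 5p arm (limma adjusted p 0.541) and 0.50 ± 0.52 for the 3p arm (limma adjusted p 0.535), with 20.3% of 305 miRNAs called and a median of 0.89. The SE of each arm is about as large as its difference. DESeq2 called the 5p difference at -1.95 (adjusted p 0.00121), and the 3p difference changed sign with RLE factors (-0.85) and with DESeq2 (-0.88).

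**Figure D5:**
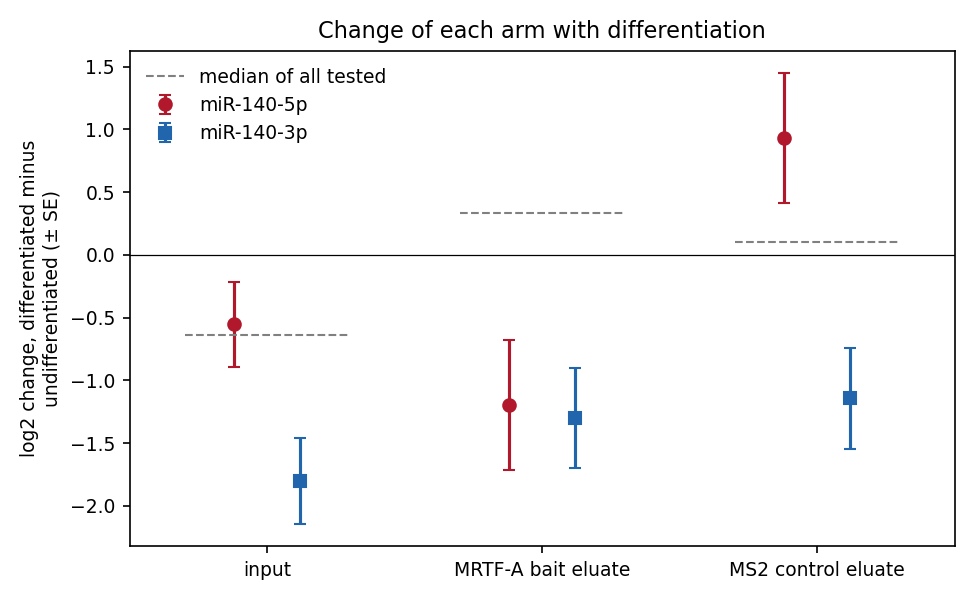
Change of each arm with differentiation, as log2 of differentiated minus undifferentiated, in input, bait eluates and control eluates, with SE bars and dashed lines at the median of all tested miRNAs. The 3p arm is below the median in each kind of library (-1.80, -1.30 and -1.14), and the 5p arm is below it in the bait eluates (-1.20), near it in input (-0.55) and above it in the control eluates (0.93).

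The miRNAs most like each arm were found by Pearson correlation over the 6 group means of log2(CPM + 10) among all miRNAs kept over the 18 libraries. The points share libraries and scaling, so r is a description. For miR-140-5p they were miR-301a-3p (r = 0.993), miR-568 (0.980), miR-34c-5p (0.978), miR-7048-5p (0.974) and miR-301b-3p (0.972). miR-301a-3p had mean levels of 62.4 CPM in undifferentiated input, 4144 CPM in the bait eluate and 99.4 CPM in the control. miR-34c-5p, a target of p53, was far more abundant, with 1659 CPM in undifferentiated input and 157036 CPM in the bait eluate. miR-568 had no read in the inputs or control eluates, where 3 reads would be 4.97 to 9.14 CPM and 35.6 to 102.995 CPM, and 193 and 216 CPM in the bait eluates. In undifferentiated and differentiated cells miR-7048-5p had means of 0.55 and 0 CPM in input and 21.3 and 0 CPM in control. For miR-301b-3p they were 3.13 and 0.61 CPM in input and 0 and 20.5 CPM in control. The r values of these 3 names thus rest on levels near the floor outside the bait. For miR-140-3p they were miR-21a-5p (0.991), miR-186-5p (0.987), miR-221-3p (0.986), miR-582-3p (0.979) and miR-15b-3p (0.976). miR-21a-5p, the most abundant of these, went from 501978 CPM in undifferentiated input to 126893 CPM in differentiated input and 5301 CPM in undifferentiated bait. The arms themselves had r = -0.67. Over the 18 libraries 3 of the 5 names stayed among the 5 highest for each arm.

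Other miRNAs of the biology miR-140 is known for were read from a list of 12 cartilage miRNAs. The list was chosen with earlier results of these data known, so its counts are a description. In input 9 were tested, of which 1, miR-22-3p, rose (0.94 ± 0.33, limma adjusted p 0.0257), and miR-214-3p (-1.80 ± 0.38, limma adjusted p 0.00136) and miR-34a-5p (-1.06 ± 0.41, limma adjusted p 0.0357) fell, where 16.0% of all miRNAs tested rose and 46.3% fell. The list's median was -0.27, against -0.64 for all. With the bait against the control, 6 were tested, and 4 were higher and 2 lower in undifferentiated cells, where 43.2% of all were higher and 17.2% lower. miR-199a-5p stood at 6.95 and miR-34a-5p at 5.40 among the higher ones, and miR-199a-3p at -3.72 among the lower. In differentiated cells 5 were higher and 1, miR-199a-3p, was lower, where 57.4% of all were higher and 21.9% lower. Between the states of the bait eluate 3 of 6 rose, miR-199a-5p (1.16 ± 0.31), miR-27b-3p (0.83 ± 0.31) and miR-22-3p (2.96 ± 0.30), and 0 fell, where 23.7% of all rose and 14.8% fell. The list's median was 0.59, against 0.33 for all. The same 3 names rose in the control eluates and 0 fell, beside 16.0% and 8.88% of all, with miR-199a-5p at 2.34 ± 0.31 and a list median of 0.93 against 0.10 for all. Both arms of miR-140 had negative values between the states of the bait eluate.

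Like miR-140, the members of a second list of 20 names come from introns of coding genes. It too was chosen with earlier results of these data known, and its counts are a description. In input 16 were tested, and 5 rose and 10 fell, beside 16.0% and 46.3% of all miRNAs tested, with a median of -1.07 against -0.64 for all. miR-128-3p rose by 2.84 ± 0.33 (limma adjusted p 1.32e-05) and miR-28a-3p changed by -2.08 ± 0.35 (limma adjusted p 0.000265), so intronic origin went with both directions. Between the states of the bait eluate 5 of 11 tested rose and 0 fell, beside 23.7% and 14.8% of all, miR-128-3p by 5.26 ± 0.56 and miR-378a-3p by 3.36 ± 0.37. Between the states of the control eluate 4 of 11 rose and 1, miR-151-3p, fell, beside 16.0% and 8.88% of all. Among those that rose were miR-128-3p (4.44 ± 0.56) and miR-378a-3p (2.38 ± 0.37). The list's median there was -0.59 against 0.10 for all. Against the control, 4 of 11 were higher with the bait in undifferentiated and 7 of 11 in differentiated cells, and 0 were lower. The counts of higher names stand beside 43.2% and 57.4% of all miRNAs higher, so they are near the table as a whole. The 0 lower names stand beside 17.2% and 21.9% of all miRNAs lower. miR-28a-5p stood at 5.96 and 5.91 and miR-378a-3p at 2.33 and 3.31, below the values of miR-140-5p in both states.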

How the data were processed

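Small RNA of C2C12 cells was measured in 18 libraries. The submitters' processing notes name cutadapt (1.4.2), Bowtie2 (2.0.13), featureCounts (1.4.6), edgeR (3.18.1) and the build GRCm38/mm10. How multiply matching reads were counted is not stated there. The deposited signal is the authors' normalised CPM. Its values were whole multiples of 1 read (100% within 0.01 read), and the factors equalled TMM factors over all 18 libraries. The log2 fold changes, p-values and FDR values in the authors' deposited table are the authors' own. As the values are normalised, limma 3.58.1 (R 4.3.3) with a trend was run on log2(CPM + 10), 10 being the pseudocount, after filterByExpr on recovered reads, with Benjamini-Hochberg adjustment over all miRNAs and a threshold of 0.05. A fold change on this scale understates low miRNAs. The state comparison used the 6 inputs, the 12 eluates or all 18 libraries. DESeq2 1.42.0 and edgeR 4.0.16 (on the recovered reads), other scalings, pseudocounts and filters, and leaving out each library were alternatives. For edgeR the authors' factors were kept, while DESeq2 estimated its own. On the recovered reads edgeR called 201 miRNAs between the states in input, 86 in bait eluates, 35 in control eluates and 54 for the difference between bait and input, against 195, 65, 42 and 62 with limma. The members and lists were chosen with earlier results of these data known. Named miRNAs followed a rule of likeness to each arm, nearness in input, arm difference, shared seed and 2 to 4 examples per list. Replicate libraries differed by more than sampling noise (chi-square per degree of freedom at least 3.90). The fits were tested on counts simulated with the same fixed spread for every miRNA, so that check does not cover the spread of these libraries.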

Additional observations from a re-analysis of the deposited data

How the results depend on the processing

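No paired analysis was possible because the suffixes of the table's columns do not match the replicate numbers in the labels. The fall of miR-140-3p in input kept its direction and call under all 9 alternatives (-1.81 to -0.84) and without each library (-1.99 to -1.51).

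The 5p change in input was 0.26 with RLE factors, 0.0415 with TMM of the fitted libraries and 0.0813 with DESeq2, all on the other side of 0, and -0.76 to -0.41 without each library. Calls in input numbered 102 with all 18 libraries fitted, against 195 (160 to 210 without each library). In the bait eluates the 5p change passed with a pseudocount of 50 (-1.20), RLE factors (-1.61), edgeR (-1.20) and DESeq2 (-1.73), and was -1.36 to -1.06 without each library. The 3p change missed with library totals (-1.03) and no filter (-1.30), and was -1.62 to -1.14 without each library. Calls there rose from 65 to 100 with all libraries fitted (53 to 73 without each). In the control eluates the 3p change passed with a pseudocount of 50 (-1.03), RLE factors (-1.28), TMM of the fitted libraries (-1.27) and all libraries fitted (-1.14), and was -1.37 to -0.84 without each library. The 5p change was -0.0493 in the control libraries with more human-named reads, an alternative added after seeing the data that leaves 1 undifferentiated library, assumed to vary like the other groups, and 0.16 to 1.43 without each library. Calls rose from 42 to 67 with all libraries fitted (35 to 55 without each).

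For the difference between the changes in bait and input, calls fell from 62 to 22 with a pseudocount of 1, 21 with RLE factors (4 higher and 17 lower, against 51 and 11), 24 with library totals and 39 with no filter, and lay between 37 and 65 without each library. DESeq2 called the 5p difference (-1.95; -0.80 to -0.44 without each library). The 3p difference was -0.85 with RLE factors and -0.88 with DESeq2 (0.19 to 0.69 without each library).

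The untested differences kept their sign. With library totals, undifferentiated bait minus control was 6.89 for 5p and -2.48 for 3p, and differentiated 5.17 and -2.16. With RLE factors, 3p was -1.28 in undifferentiated cells, and differentiated 5p and 3p were 5.69 and -1.68. Bait minus input for undifferentiated 5p was 9.04 with a pseudocount of 50, 10.66 with RLE factors and 8.61 with library totals, and for 3p -3.15 with RLE factors and -5.32 with library totals. For differentiated cells it was 8.20 (pseudocount 50) and 7.76 (library totals) for 5p and -5.06 (library totals) for 3p. Control minus input with RLE factors was 2.52 and -1.88 in undifferentiated and 3.10 and -2.31 in differentiated cells for 5p and 3p. It was -2.84 with library totals for undifferentiated 3p and 1.77 with a pseudocount of 50 for differentiated 5p. Without each library, bait minus control was 7.96 to 9.23 and 6.51 to 6.74 for 5p.

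The added fit over hairpins called the arm change in input (1.25) and in the control (2.07). Without each library it was 1.05 to 1.46 in input, still called without differentiated A (1.46) and without undifferentiated A (1.35), B (1.05) or C (1.36). It was 1.397 to 2.55 in the control, still called without differentiated C (2.18) or undifferentiated A (2.55). Without each library the change in 5p share was 0.984 to 1.59 percentage points in input, -0.0359 to 0.156 in bait eluates and 23.5 to 36.6 in control eluates, and the fitted change in bait eluates was -0.15 to 0.38, below 0 without differentiated A (-0.15) or undifferentiated B (-0.0848). The cause of these changes was not tested. Depth limits the control eluates, where single libraries held 4 to 11 reads of the 5p arm.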
